A study of Homo sapiens with 2 samples.

Results

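The 45 nuclear receptor genes considered here were taken as a listed gene family. A peak was counted for a gene when its summit, the point of highest signal, lay inside the RefSeq span of that gene, whatever gene the deposited table named for it. By this rule 117 of 39801 deposited peaks lay in 31 of the 45 genes, and 14 genes held none. N6-methyladenosine (m6A), the commonest internal modification of mRNA, was mapped with an antibody in HCCLM3, an established human hepatocellular carcinoma cell line. Per the labels, both libraries came from cells of genotype WT, with no treatment named. There was 1 m6A-RIP library, made from RNA captured by the antibody, and 1 input library, made from RNA before capture. With 1 library in each group, no test was possible and every value describes this pair of libraries.

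Nuclear receptors are transcription factors whose activity is set, in many cases, by small lipophilic ligands such as thyroid hormone, retinoic acid, steroids, bile acids and vitamin D. They share a DNA-binding domain built of zinc fingers and a ligand-binding domain that recruits coactivators or corepressors. Steroid receptors act mainly as homodimers, and many of the others pair with a retinoid X receptor (RXR). In liver, members of the family control lipid, bile acid, glucose and drug metabolism. In mRNA, m6A is known to lie mainly in long internal exons and near stop codons and in 3' UTRs, where reader proteins bind it and influence the stability and translation of the transcript.

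For each peak the authors' caller gave a fold of RIP over input at the summit, a p-value and a q-value. All of them come from the authors' caller and serve here only to compare peaks of the same list. The number of RIP fragments behind each summit and the local input level, in fragments on the input library's scale, were recovered from them. The fold carries a pseudocount of 1, which lowers it most where input is low. Each fold is followed by its 95% Poisson interval, which covers counting error in the RIP fragments only. Fragments carried no stated molecular identifiers, so copies of 1 molecule may be counted more than once. The RIP library was 1.56 times the size of the input library. Peaks with a q-value under 0.05 are called strong peaks here. Positions are on hg38.

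Of 10 hepatocyte markers 5 held a peak, each with a strong one, among them HNF4A, APOB, CEBPA and FGB. That share, 50%, is close to the 49.3% of protein-coding genes that held a peak, so these counts do not bear on the labelled cell type. ALB, APOA1, TTR, SERPINA1 and TF held none. None of 5 immune markers held a peak, while PECAM1 and LUM did among 6 endothelial and stromal markers. A peak list holds no expression level, so a gene without a peak has no value here and its RNA may or may not have been present.

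Receptor genes held peaks in 31 of 45 cases, or 68.9%, against 49.3% of 20033 protein-coding genes under the same rule. Strong peaks lay in 28 members (62.2%), against 39% of protein-coding genes. At a q-value under 1e-5 there were 19 members (42.2%), against 28.5%, and with a peak of fold 4 or more 25 (55.6%), against 30.9%. The members were longer than the background, with a median span of 48.5 kb against 24.1 kb, and were not matched to it on length or expression. Members with a peak had a median span of 63.5 kb and those without one 35.2 kb. The part of span and expression in these shares was not tested. The members were also chosen with earlier results of these data known.

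Of the 117 member peaks, 61 (52.1%) were strong, against 48.8% of all deposited peaks. A further 33 had a q-value of 1. Member peaks had a median fold of 3.40 (quartiles 2.35 to 4.78, range 1.76 to 17.45) on a median of 10 RIP fragments, while all deposited peaks had a median of 3.33 on 9 fragments. Over the 28 genes with a strong peak the best strong peak had a median fold of 5.79, against 5.42 over 7804 protein-coding genes with one. Fold and depth of single member peaks were thus near those of the whole list, whereas the share of genes holding a peak was above the background. The lowest evidence came from 27 peaks with at most 3 RIP fragments. All 27 had a q-value of 1, 21 carried an intron label, and their folds lay between 1.76 and 2.35.

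**Figure D1:**
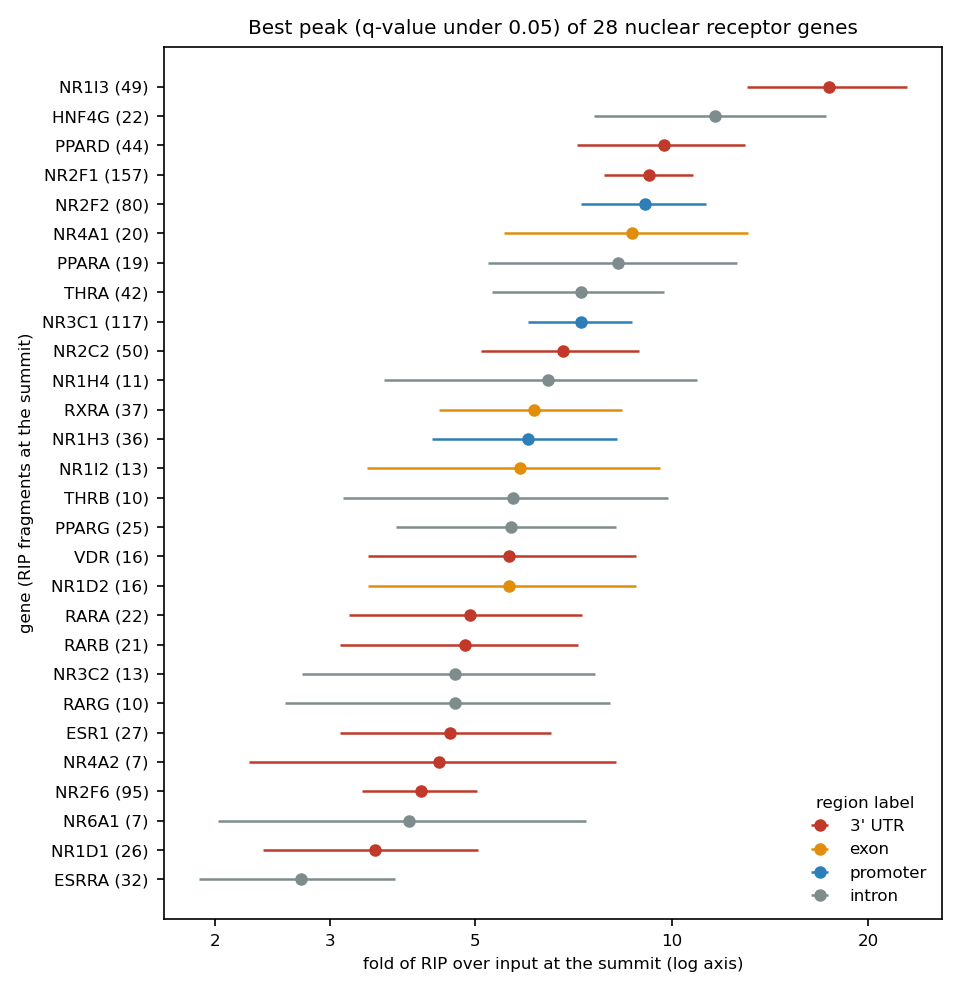
Fold of RIP over input (log axis) at the best strong peak of each of 28 nuclear receptor genes, with RIP fragments in brackets; bars are 95% Poisson intervals and colours are the deposited region labels. NR1I3 has the highest deposited fold, 17.45, which without the pseudocount is passed by that of HNF4G, and ESRRA the lowest, 2.71, and the intervals of most neighbours overlap.

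The thyroid hormone, retinoic acid and peroxisome proliferator-activated receptors bind DNA as partners of RXR. All 8 of their genes held a strong peak, against 39% of protein-coding genes. At a q-value under 1e-5 there were 5, against a share of 28.5%. Together they held 46 of the 117 peaks, of which 14 lay in THRB, with a span of 379 kb. The subfamilies were not matched to the background on span or expression. PPARD, a lipid-sensing receptor expressed in many tissues, had the highest deposited fold of the group, 9.74 (7.17 to 12.96) on 44 fragments, in its 3' UTR at chr6:35425968-35426467. A second 3' UTR peak only a short distance downstream had 20 fragments over an input level of 5 and a fold of 2.31 (1.47 to 3.47), and it missed the threshold. The intervals of the pair did not overlap. Without the pseudocount the best PPARD peak had a fold of 14.1 over an input level of 2. The values of THRB (21.7 over 0.296) and PPARA (20.6 over 0.592) were higher but rest on lower input. The deposited intervals of PPARD and PPARA overlapped.

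PPARA, the receptor that drives fatty acid oxidation in liver and is the target of fibrate drugs, held 7 peaks, of which 5 were strong. Its best lay in intron 2 of 8 at chr22:46174075-46174420 with a fold of 8.29 (5.24 to 12.6) on 19 fragments. A 3' UTR peak at chr22:46235195-46236188 rested on more fragments, 53, with a fold of 7.0 (5.29 to 9.10), and another at chr22:46238017-46240693 reached 4.90 (3.37 to 6.93). PPARA thus had its signal both deep in an intron and along the 3' UTR, and the intervals of the strongest of each overlapped. Weaker strong peaks lay in exon 8 of 9 (3.54) and intron 7 of 8 (3.71). PPARG, the regulator of fat cell formation, held 6 peaks and none with an exon or UTR label. Its best, in the last intron (7 of 7) at chr3:12426492-12426851, had a fold of 5.68 (3.79 to 8.23) on 25 fragments, and 3 other strong intron peaks had folds of 3.54 to 4.09.

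THRA, the thyroid hormone receptor gene that also encodes a splice form unable to bind hormone, held 3 strong peaks toward its 3' end. The best, at chr17:40086948-40087601, carried the label intron 7 of 9 and reached 7.27 (5.32 to 9.74) on 42 fragments. A 3' UTR peak at chr17:40089288-40090388 had 58 fragments and a fold of 4.78 (3.66 to 6.14). Farther along, a peak of fold 3.52 (2.37 to 5.06) on 26 fragments lay where the gene overlaps NR1D1 on the opposite strand. THRB, the gene of the main thyroid hormone receptor of liver, held 14 peaks over a span of 379 kb, more than any other member. Only 3 were strong. The best of them lay in intron 1 of 9 at chr3:24482357-24482657 with a fold of 5.72 (3.15 to 9.88) on 10 fragments, followed by a 3' UTR peak of 4.35 (2.49 to 7.22) on 12. Of the other THRB peaks, 5 had at most 3 fragments, and no THRB peak had more than 12.

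The best peaks of the retinoic acid receptors had deposited folds below 5. RARA, which is fused to PML in acute promyelocytic leukaemia, held 3 strong peaks and no intron peak. Its best was a 3' UTR peak at chr17:40357193-40357498 with a fold of 4.92 (3.21 to 7.28) on 22 fragments. Its only strong peak in a 5' UTR, which was also the only such peak of the family, had 71 fragments over an input level of 20 and a fold of 2.22 (1.74 to 2.78). RARB, a retinoid-induced gene often silenced in tumours, reached 4.82 (3.11 to 7.20) on 21 fragments in its 3' UTR at chr3:25596503-25596980, and 2.81 (2.11 to 3.67) on 51 fragments at a promoter. RARG, the receptor most studied in skin, had a fold of 4.66 (2.56 to 8.04) on 10 fragments in intron 2 of 8 at chr12:53228339-53228724 and 3.64 (2.04 to 6.16) on 11 in its 3' UTR. The intervals of the best peaks of the 3 genes overlapped throughout, and also overlapped those of PPARG and THRB. Without the pseudocount the best peak of RARG had a fold of 10.84 over an input level of 0.592. This was above THRA (9.48 over 2.84) and PPARG (8.02 over 2), which had more input.

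The REV-ERB receptors repress, and the ROR receptors activate, genes of the circadian clock through shared DNA elements. Of 4 genes, NR1D1 and NR1D2 held strong peaks, RORA held weak ones and RORB none. NR1D2, encoding REV-ERB beta, had its best peak in exon 7 of 8 at chr3:23967976-23968276, with a fold of 5.63 (3.43 to 8.84) on 16 fragments. A peak in exon 5 of 8 rested on 78 fragments over an input level of 14 and had a fold of 3.40 (2.70 to 4.23). The better-covered peak therefore had the lower fold, and the intervals overlapped. NR1D1, encoding REV-ERB alpha, had only the peak shared with THRA, at chr17:40092670-40093011. The list carries no strand, so overlapping genes such as these cannot be told apart. RORA held 5 intron peaks over 741 kb with a best fold of 3.38 (1.64 to 6.81) on 5 fragments, and all missed the threshold. Most of these summits, the best among them, also lay within long non-coding RNA genes.

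The receptors for sterols, bile acids, vitamin D and foreign compounds include the main regulators of liver cholesterol and drug metabolism. Of 6 genes, 5 held a strong peak, against 39% of protein-coding genes. NR1H2, encoding the widely expressed oxysterol receptor LXR beta, held no peak. NR1I3 encodes the constitutive androstane receptor (CAR), which induces drug-metabolising enzymes in hepatocytes, and it had the highest deposited fold of the family. Its only peak lay in the 3' UTR at chr1:161230221-161230701, with 49 RIP fragments over an input level of 0.858 and a fold of 17.45 (13.05 to 22.9). Among the 7804 protein-coding genes with a strong peak this ranked 23. Without the pseudocount the fold was 36.6, below the 47.7 of HNF4G, so the highest rank in the family turned with that constant. The HNF4G value rests on an input level of 0.296, near the lowest of 0.246. Error in the input level is not covered by the intervals. The NR1I3 summit also lay in the last part of TOMM40L, a mitochondrial import gene on the opposite strand, and the peak may belong to either gene. NR1I2 encodes the pregnane X receptor (PXR), the other main drug sensor of liver. Its best peak lay in exon 4 of 9 at chr3:119811561-119811928 with a fold of 5.87 (3.42 to 9.59) on 13 fragments. Its peaks in exon 3 (3.89, 6 fragments) and the 3' UTR (3.38, 5 fragments) missed the threshold with a q-value of 0.0537 each.

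NR1H4 encodes FXR, the bile acid receptor that limits bile acid synthesis. All 3 of its peaks were intronic and lay at the lowest input level, 0.246. The best, in intron 10 of 11 at chr12:100560554-100561005, reached 6.47 (3.63 to 10.9) on 11 fragments. Its other peaks rested on 5 and 3. NR1H3 encodes LXR alpha, the liver oxysterol receptor. Its strong peak, at chr11:47268671-47269034, had a fold of 6.02 (4.29 to 8.24) on 36 fragments. The deposited label was promoter, of the neighbouring gene MADD, although the summit lay 0.21 kb inside the 3' end of NR1H3. VDR, the vitamin D receptor gene, had both of its peaks in the 3' UTR. They had folds of 5.63 (3.43 to 8.84) on 16 fragments at chr12:47841591-47842014 and 5.22 (3.63 to 7.31) on 31 fragments at chr12:47843885-47844549, and did not differ beyond their intervals.

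Retinoid X receptors are the shared partners of many of the receptors above. RXRA, the main form in liver, held 3 strong peaks at the end of the gene. The best lay in exon 9 of 10 at chr9:134434169-134434482 with a fold of 6.16 (4.41 to 8.39) on 37 fragments. A broad 3' UTR peak at chr9:134436552-134437960 had a fold of 4.21 (3.26 to 5.34) on 64 fragments. A last peak, 0.103 kb before the gene's end, had 60 fragments over an input level of 18 and a fold of 2.08 (1.60 to 2.66). Across these 3 strong peaks the fold thus went down toward the 3' end. The input level went up from 3.02 to 9 to 18, and the first and last intervals did not overlap. The other RXRA peak, in intron 1 of 9, had a fold of 2.835 (1.41 to 5.48) on 6 fragments and missed the threshold. RXRB and RXRG held no peak in their spans on the main chromosomes.

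Orphan receptors of the same subfamily gave some of the best-covered peaks. NR2F1 encodes COUP-TFI, a regulator of neural and mesodermal development that is also studied in tumour dormancy. Its 3' UTR peak at chr5:93593815-93594464 had 157 RIP fragments over an input level of 10, the most of any member peak, with a fold of 9.25 (7.87 to 10.8). Strong promoter peaks of 4.05 (2.80 to 5.70) and 2.89 (1.998 to 4.07) lay at the other end of the gene, within the span of the antisense transcript NR2F1-AS1. The intervals of both were below that of the 3' UTR peak. NR2F2, encoding the related COUP-TFII, had strong peaks only. The best, at chr15:96331385-96332330, had 80 fragments and a fold of 9.12 (7.27 to 11.3), and a 3' UTR peak at chr15:96337560-96337950 had 83 fragments and a fold of 6.03 (4.83 to 7.45). NR2F6, encoding the third COUP-TF relative EAR2, had 1 peak of fold 4.13 (3.35 to 5.03) on 95 fragments over an input level of 14, in its 3' UTR at chr19:17231745-17232458. The 3 paralogs thus all had a 3' UTR peak of more than 80 fragments, and their 3 intervals fell in the order NR2F1, NR2F2, NR2F6, with the first above both others and the last 2 overlapping.

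Testicular receptor 4, encoded by NR2C2, is an orphan receptor involved in lipid metabolism and spermatogenesis. Its 3' UTR peak at chr3:15042256-15043361 had a fold of 6.82 (5.12 to 8.93) on 50 fragments and shared its summit with MRPS25 on the opposite strand. A peak in exon 13 of 14 at chr3:15039162-15039505, outside that overlap, had nearly the same fold of 6.75 (4.66 to 9.49) on 30 fragments. NR2C1, its closest paralog, and the neural and retinal receptors NR2E1 and NR2E3 held no peak.

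The promoter windows of the COUP-TF genes and of NR3C1, the glucocorticoid receptor gene, are shown because a strong peak with a promoter label reached into them. Each run is the 250 bases before a RefSeq transcript start (GRCh38.p14), 5' to 3' on the strand of the gene, and capitals mark the bases that lie inside the peak.
NR3C1, minus strand, chr5:143404237-143404486: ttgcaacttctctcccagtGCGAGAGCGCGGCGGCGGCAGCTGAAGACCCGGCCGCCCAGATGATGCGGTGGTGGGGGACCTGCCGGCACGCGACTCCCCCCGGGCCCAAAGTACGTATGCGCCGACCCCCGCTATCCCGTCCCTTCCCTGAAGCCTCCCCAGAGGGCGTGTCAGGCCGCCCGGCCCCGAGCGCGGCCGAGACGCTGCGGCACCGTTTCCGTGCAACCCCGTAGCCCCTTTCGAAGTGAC
NR3C1, minus strand, chr5:143403284-143403533: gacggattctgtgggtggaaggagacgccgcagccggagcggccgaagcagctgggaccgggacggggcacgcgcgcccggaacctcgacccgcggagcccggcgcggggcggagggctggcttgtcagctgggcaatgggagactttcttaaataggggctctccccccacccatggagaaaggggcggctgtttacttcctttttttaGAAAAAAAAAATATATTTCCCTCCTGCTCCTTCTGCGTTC
NR2F1, plus strand, chr5:93582972-93583221: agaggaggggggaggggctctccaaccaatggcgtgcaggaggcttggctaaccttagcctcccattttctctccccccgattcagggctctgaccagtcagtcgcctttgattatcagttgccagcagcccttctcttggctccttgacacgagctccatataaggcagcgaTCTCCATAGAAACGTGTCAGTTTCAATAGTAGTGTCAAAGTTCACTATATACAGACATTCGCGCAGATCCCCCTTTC
NR2F2, plus strand, chr15:96332315-96332564: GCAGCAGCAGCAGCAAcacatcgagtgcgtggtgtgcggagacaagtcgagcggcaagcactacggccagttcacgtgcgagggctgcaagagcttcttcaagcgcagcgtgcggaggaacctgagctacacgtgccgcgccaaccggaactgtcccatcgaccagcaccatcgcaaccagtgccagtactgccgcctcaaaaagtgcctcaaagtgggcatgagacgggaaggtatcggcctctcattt

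In the first NR3C1 window 231 of the 250 bases lay inside the peak, whose summit was at position -11 from the transcript start. In the second the peak covered 40 bases, with its summit 87 bases after the start. The NR2F1 peak covered 77 bases and had its summit 496 bases after the start. The NR2F2 peak covered only the first 16 bases, a run of repeated CAG triplets, and its summit lay at position -655 from that start, which is an internal start of the gene. Read in frame 2 this window holds no stop codon, and bases 26 to 88 spell the cysteine spacing of a receptor zinc finger, with gaps of 2, 13 and 2 residues. That pattern was found in 1 of 94 member windows and in 9 of 35116 windows of all genes (0.0256%). The promoter label of the best NR2F2 peak was thus set by a start inside the gene, and the summit lay 5.86 kb from the 5' end of the span.

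Of the 45 members, 40 had windows in the RefSeq promoter table, 94 in all. The motif GGACT, the core of the commonest m6A consensus, was searched in windows of 250 bases before and 50 after each start. It was present on the sense strand in 22 of 94 member windows (23.4%) and in 25.3% of 35116 windows of all genes. On either strand the shares were 44.7% and 44.2%. The member windows were thus close to all windows in this respect. Most of each window lies before the start, outside the RNA made from it, so these shares do not bear on m6A sites. A match is only a match of letters, and peaks themselves were not searched.

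**Figure D2:**
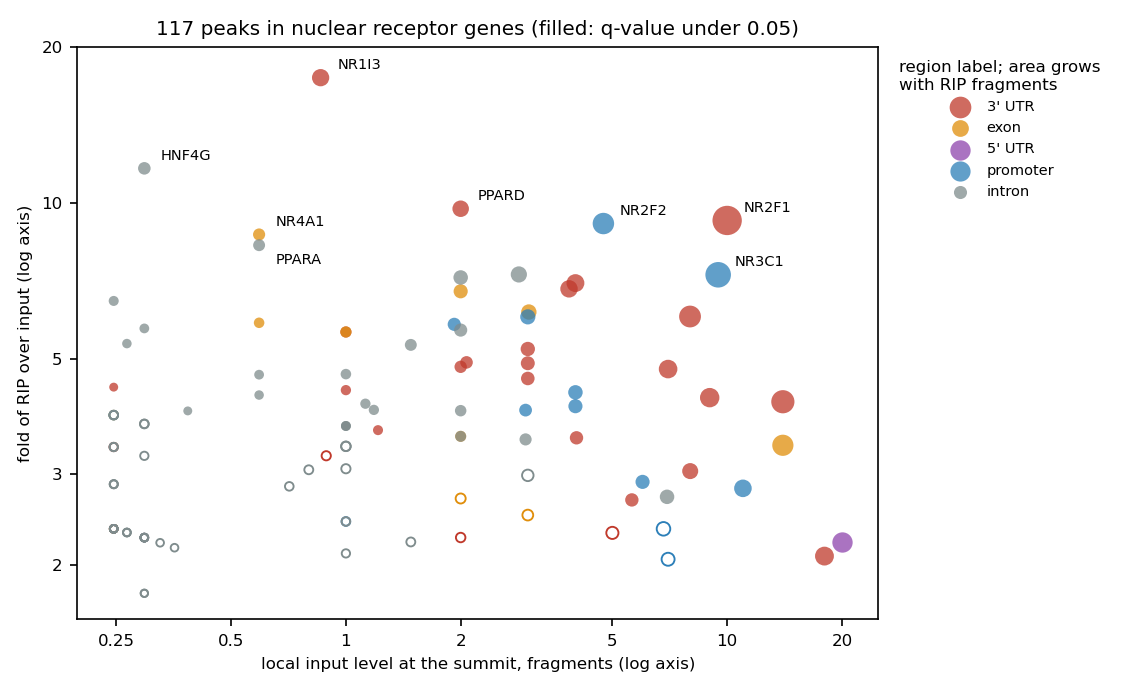
Fold of RIP over input against the local input level in fragments (both log axes) for 117 peaks in nuclear receptor genes; filled points are strong peaks, open points are the rest, area grows with RIP fragments and colour is the region label. NR1I3 and HNF4G reach 17.45 and 11.66 over input levels below 1, whereas NR2F1 and NR3C1 reach 9.25 and 7.26 over levels near 10.

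Steroid receptors bind hormones made by the adrenal gland and gonads, and the oestrogen-related receptors are orphans that control mitochondrial genes. Of 8 genes, 4 held a peak and each of the 4 held a strong one. The shares of protein-coding genes were 49.3% for a peak and 39% for a strong one. NR3C1, the glucocorticoid receptor gene, had the most and best-covered peaks of the group. Its best lay at chr5:143399597-143400790, labelled promoter at 2 to 3 kb from a start, with 117 fragments over an input level of 9.47 and a fold of 7.26 (6.02 to 8.69). The peaks in the windows shown above had folds of 5.83 (3.89 to 8.44) on 25 fragments and 4.31 (3.01 to 5.996) on 32. All 3 lay between 31.3 and 35.6 kb from the outermost 5' end, near internal starts of the gene. An intron peak at chr5:143339166-143339610 had a fold of 5.35 (2.87 to 9.45) on 9 fragments. NR3C1 had no peak with an exon or UTR label.

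The mineralocorticoid receptor gene NR3C2, whose product binds aldosterone, had its best peak in its last intron (8 of 8) at chr4:148083768-148084556, with a fold of 4.67 (2.72 to 7.63) on 13 fragments. ESR1, encoding oestrogen receptor alpha, had 1 peak in 473 kb, in the 3' UTR at chr6:152121910-152122460, with a fold of 4.58 (3.10 to 6.55) on 27 fragments. The summit was shared with SYNE1, a nuclear envelope gene on the opposite strand, so the gene of origin is uncertain. ESRRA, a regulator of oxidative metabolism, had the lowest best fold of the 28 genes, 2.71 (1.89 to 3.77) on 32 fragments, in intron 2 of 6 at chr11:64312738-64313074. ESR2, ESRRB, ESRRG and PGR, the last encoding the progesterone receptor, held no peak.

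The remaining subfamilies are orphan receptors, and the NR4A genes among them are immediate early genes that respond to growth and stress signals. Of 8 genes, 5 held a peak and 3 a strong one, against 49.3% and 39% of protein-coding genes. NR4A1, encoding NUR77, had a fold of 8.69 (5.55 to 13.1) on 20 fragments in exon 3 of 8 at chr12:52054492-52055078. NR4A2, encoding NURR1, had a 3' UTR peak of 4.41 (2.25 to 8.23) on 7 fragments at chr2:156325285-156325819. This peak lay at the lowest input level, 0.246. NR4A3 had a pair of peaks with a fold of 2.35 (1.12 to 5.32) on 3 fragments each, and both missed the threshold. NR6A1, the germ cell nuclear factor gene, held 7 peaks, of which 6 had at most 3 fragments. Its only strong peak lay in intron 2 of 9 at chr9:124706898-124707270 with a fold of 3.97 (2.03 to 7.40) on 7 fragments. NR5A2 encodes LRH-1, which drives bile acid synthesis in liver, and it had 1 peak with a fold of 2.35 on 3 fragments that missed the threshold. NR5A1, the adrenal and gonadal relative of NR5A2, and NR0B1 and NR0B2, which encode the corepressors DAX1 and SHP that lack a DNA-binding domain, held no peak.

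HNF4G, a close relative of the liver regulator HNF4A, held 6 strong peaks among 7 and, after NR1I3, the next highest deposited fold of the family. Without the pseudocount its fold was the highest, and the intervals of the deposited folds overlapped. The best lay in intron 1 of 11 at chr8:75465554-75465943 with 22 fragments over an input level of 0.296 and a fold of 11.66 (7.60 to 17.3), rank 310 of 7804 genes. In the same intron, peaks at chr8:75434384-75434956 and chr8:75430835-75431705 had folds of 7.18 (5.01 to 9.99) on 32 fragments and 5.32 (3.36 to 8.08) on 19. A promoter peak had a fold of 3.98 (2.62 to 5.84) on 23 fragments. All 7 peaks lay within 66.3 kb of the 5' end of a gene of 159 kb, and none was labelled exon or UTR. Its paralog HNF4A, one of the hepatocyte markers above, had a best fold of 11.45 (8.54 to 15.1) on 48 fragments, also with an intron label, and the intervals overlapped.

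**Figure D3:**
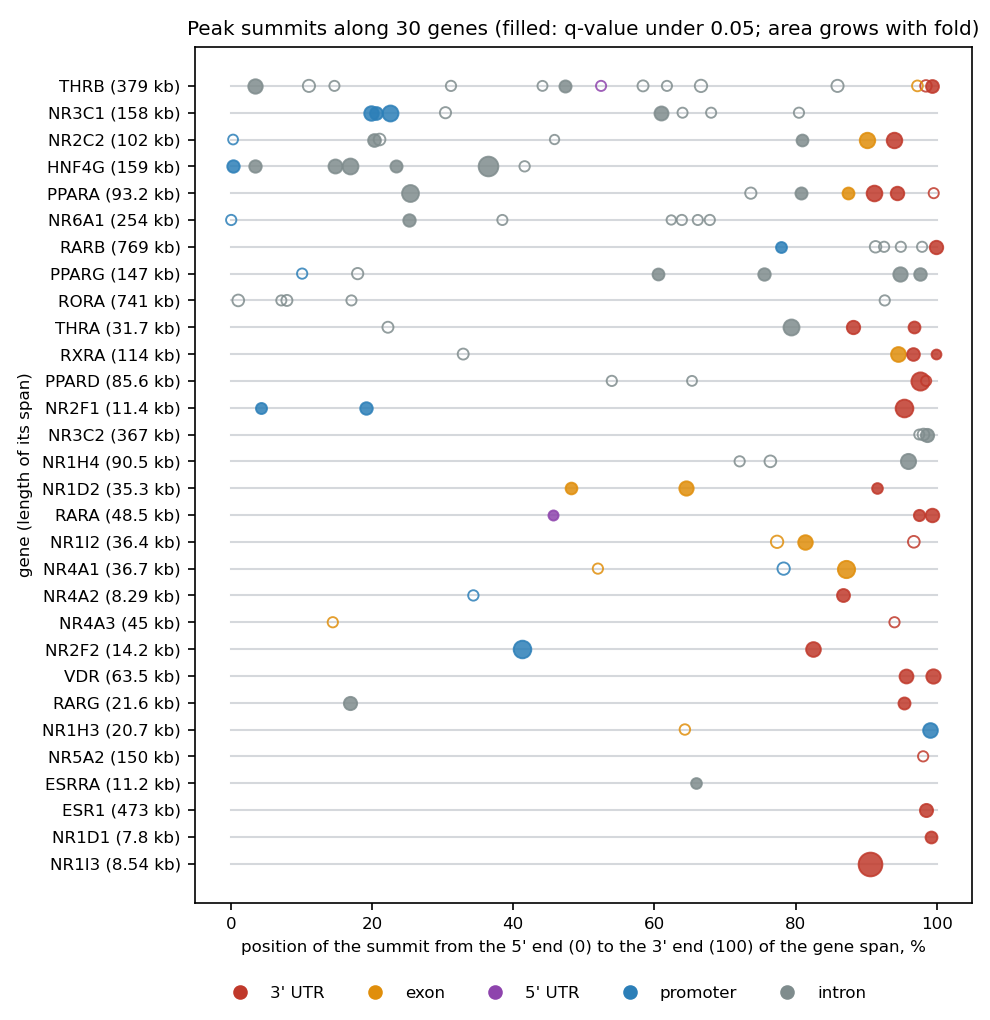
Position of each peak summit from the 5' end (0%) to the 3' end (100%) of the span for the 30 members with a peak and a known strand; filled points are strong peaks, area grows with fold and colour is the region label. Of the strong summits 33 of 60 lie in the last 20%. Those of HNF4G all lie in the first 36.45% of the gene, and the promoter peaks of NR3C1 between 19.8% and 22.6%.

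By position, 49 of 116 member peaks (42.2%) lay in the last 20% of their gene's span, and NR2F6 was left out because the gene table used gave no strand for it. Among strong peaks the share was 33 of 60 (55%), and 18 of 28 (64.3%) at a q-value under 1e-5. The same shares over peaks in protein-coding genes were 32.5%, 40.1% and 45.4%. For 27 of the 3' UTR peaks the distance from summit to the gene's end could be measured, and the median was 2068 bp. At least 1 strong 3' UTR peak was held by 18 of the 45 members (40.0%), against 20.3% of protein-coding genes. Strong peaks of any label were held by 62.2% of members, against 39%, and the members were not matched on span or expression. For NR1I3, NR1D1, ESR1 and NR2C2 the only strong 3' UTR peak shared its summit with a coding gene on the opposite strand. Under this rule a shared peak counts for both genes, in the background too. For the best strong peak of each of the 28 genes the label was 3' UTR in 11, intron in 10, exon in 4 and promoter in 3. Peaks of 1 gene share their source, so these counts describe the family and are not independent observations.

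By region label, introns held 61 of the 117 member peaks (52.1%, Wilson interval 43.2 to 61) and 3' UTRs 28 (23.9%, 17.1 to 32.4). Among strong peaks both held 22 of 61 (36.1%, 25.2 to 48.6). At a q-value under 1e-5, 3' UTRs held 13 of 29 (44.8%, 28.4 to 62.5) and introns 7 (24.1%, 12.2 to 42.1). Peaks in protein-coding genes went the same way, from 18.8% to 34.2% for 3' UTRs and from 44.4% to 16.4% for introns, and each of these values lay inside the member interval at its threshold. Exon labels were held by 12 member peaks (10.3%, 5.96 to 17.1) against 18.1% of peaks in protein-coding genes, and by 7 strong ones (11.5%, 5.67 to 21.8) against 24.2%. At a q-value under 1e-5 the exon share was 13.8% (5.5 to 30.6) and its interval took in the 27.4% of protein-coding genes.

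The depth behind the labels differed. Member 3' UTR peaks had a median fold of 4.38 on 26.5 fragments over an input level of 3, and member intron peaks 3.05 on 6 fragments over 0.296. Without the pseudocount the order of the medians turned, to 6.65 in 3' UTRs and 7.23 in introns. Of the 3' UTR peaks 22 of 28 were strong, as were 79.0% of all 3' UTR peaks in protein-coding genes. Of the intron peaks 22 of 61 were strong, against 32.8%. Exon peaks were strong in 7 of 12 cases against 71.6%, and promoter peaks in 9 of 14 against 64.6%. The lowest input level of 0.246 stood behind 23 member peaks, 2 of them strong.

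**Figure D4:**
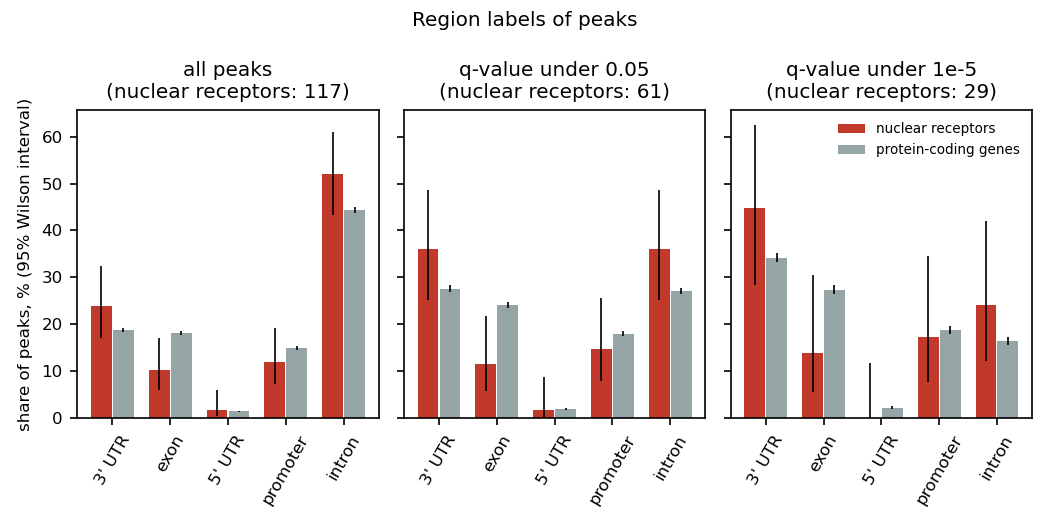
Share of peaks by deposited region label for nuclear receptors and for all protein-coding genes, over all peaks, peaks with a q-value under 0.05 and peaks with a q-value under 1e-5; bars start at 0 and lines are 95% Wilson intervals. For nuclear receptors the 3' UTR share goes from 23.9% to 44.8% and the intron share from 52.1% to 24.1% as the threshold becomes stricter.

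The gene named by the deposited table was often a neighbour of the receptor. Of 118 pairs of a member and a peak, the table named the member for 55 (46.6%). It did so for 8 of 29 pairs in 3' UTRs and for 12 of 14 at promoters. FANCE stood in for PPARD, CDPF1 for the 3' UTR peaks of PPARA, HDAC7 for VDR, MRPS25 for NR2C2 and NKIRAS1 for NR1D2. In the other direction, the table named NR2E3, a photoreceptor gene, for peaks in MYO9A and THSD4, up to a fold of 16.54. It named NR1H3 for a 3' UTR peak of ACP2 (9.16) and NR1I2 for 4 intron peaks of GSK3B. A reader of the gene column alone would thus meet NR2E3, NR2C1 and RXRB, whose spans held no peak, and would miss 9 receptors whose spans did. The peak named RXRB, on 3 fragments, lay on an alternate sequence of chromosome 6. Gene spans were searched on the main chromosomes only, so that peak was not assigned to any gene here.

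Summits shared with another protein-coding gene were found for 4 peaks, in the pairs NR1I3 and TOMM40L, THRA and NR1D1, NR2C2 and MRPS25, and ESR1 and SYNE1. In each pair the genes run on opposite strands and overlap at their 3' ends. Without these peaks 28 members held one, since ESR1, NR1D1 and NR1I3 had no other. With non-coding genes and pseudogenes counted too, 15 of the 117 member peaks shared their summit with another gene. Without those, 28 members again held a peak. The deposited list does not say which strand the fragments came from.

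The genes that work with nuclear receptors differed among themselves in how often they held a strong peak. Coregulators, the proteins that receptors recruit to chromatin, did so in 19 of 23 cases (82.6%), against 39% of protein-coding genes, and the median of their best strong peaks was a fold of 6.2. NSD1, a histone methyltransferase that binds receptors, reached 12.6 (9.996 to 15.7) on 77 fragments in an exon. The corepressor gene NRIP1 reached 12.02 (9.04 to 15.7) on 51 in its 3' UTR. The coactivator NCOA1 reached 11.89 (7.81 to 17.5) on 23 in its 3' UTR, and NCOA7 11.24 (8.45 to 14.7) on 51 in an exon. PRMT1, PPARGC1A, HDAC3 and GPS2 held no peak.

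Chaperones that hold steroid receptors ready for hormone held a strong peak in 6 of 14 cases (42.9%), near the 39% of protein-coding genes, with a median best fold of 4.04. HSPA4 had 5.56 (3.62 to 8.23), the HSP90 activator AHSA1 4.59 (3.60 to 5.77), the phosphatase PPP5C 4.17 (3.27 to 5.25) and the immunophilin PPID 3.90 (2.84 to 5.24). HSP90AB1, HSPA8, DNAJA1 and STIP1 were among those with no peak.

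Genes for the synthesis, transport and breakdown of ligands held a strong peak in 7 of 37 cases (18.9%), below the 39% of protein-coding genes. The retinaldehyde reductases DHRS3 and RDH11 had 5.51 (4.54 to 6.62) and 4.69 (3.88 to 5.61), on 110 and 116 fragments. SRD5A2, the steroid reductase gene, had 5.44 (2.92 to 9.60) on 9 fragments with an intergenic label inside its span, and the vitamin D hydroxylase gene CYP2R1 4.18 (2.62 to 6.42). The retinoid-binding protein genes RBP4, CRABP1 and CRABP2 held none.

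Known targets of the receptors, most but not all of them liver targets, held a strong peak in 10 of 34 cases (29.4%). The share of protein-coding genes was 39%, and the median best fold of the targets was 4.53. KLF9, induced by glucocorticoid and thyroid hormone, had a 3' UTR peak of 12.69 (9.13 to 17.2) on 38 fragments. MYLIP, the LXR target that degrades the LDL receptor, had 6.98 (3.995 to 11.6), the malic enzyme gene ME1 6.25 (4.47 to 8.52) and the clock gene PER1 4.95 (2.88 to 8.08). The sterol transporter genes ABCG5 and ABCG8, SREBF1 and the bile acid-induced hormone gene FGF19 held none. These lists were not matched to the background on length or expression, and the part of either in these shares was not tested. The lists were also chosen with earlier results of these data known, and the part of that choice was not tested.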

How the data were processed

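RNA of HCCLM3 cells was captured with an m6A antibody and sequenced beside its input, 1 library each; whether parallel cultures exist is not stated in the labels. Per the submitters' processing notes, the tools were HISAT2, an aligner, and MACS2, a peak caller, with the hg38 build. Their versions and settings, the peak threshold, any removal of duplicates and the total depth were not given in the sources used here. Per the file headers, the deposited table gives a fold for each peak, which is a ratio of RIP over input, and a summit offset. The headers of the columns taken as the authors' −log10 p-value and −log10 q-value were damaged; the reading rests on the deposited score, which is 10 times the first rounded down for 99.99% of peaks.

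Gene spans came from RefSeq's GRCh38.p14 gene table (the main chromosomes match hg38); region labels were kept as deposited, where a promoter label reaches 3 kb from a start and takes precedence. RIP fragments and input level were solved from fold and p-value as whole fragments scaled by 0.6415, with a pseudocount of 1 and a Poisson tail. This met 100% of 39801 peaks within 0.001 on the −log10 scale, 98.2% with 1 whole number only. On 1000 peaks simulated with the same formulas, it recovered the fragments of 99.9%. That checks the solving only, since it cannot show that the caller used these formulas. Intervals are 95% Poisson (folds) or Wilson (shares). No test was made. The members and the lists of coregulators, chaperones, ligand enzymes, targets and markers were chosen with earlier results of these data known. All 45 members are named, each with its best strong peak where it has one; in each of the 4 companion lists the text names at most 4 genes with the highest folds of strong peaks, and at most the first 4 that held none; some genes of these lists are not reported here. Alternatives varied the threshold, fragment minimum, gene assignment, shared summits, region labels and pseudocount. Python 3.11.15, pandas 2.3.3, numpy 2.4.6, scipy 1.17.1 and matplotlib 3.10.9 were used.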

Additional observations from a re-analysis of the deposited data

How the results depend on the processing

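The number of members holding a peak was 31 and stayed within 1.5 times of it (23 to 31) under every alternative run except a q-value under 1e-5, which left 19. Member peaks numbered 61 for q-values under 0.05, 29 for q-values under 1e-5 and 41 for folds of at least 4. They numbered 72 by the gene that the deposited table names, 56 without intron peaks and 42 with exon and UTR labels only. The median best fold of the members, 5.68, became 4.41 by the deposited gene and 10.43 without the pseudocount; the cause of the first was not tested. It lay between 4.92 and 6.82 under the other alternatives. Without the pseudocount the best fold was taken anew over all peaks of a gene, strong or not. By this rule the best fold of 21 of 31 genes lay beyond its deposited interval. Ranks between genes of unequal input thus rest on that constant. The best could then be another peak, as for THRA, NR3C1 and NR2C2, whose former best peaks stayed inside their intervals. The THRA value of 10.43, which is also the median, came from a peak on 4 fragments with a q-value of 0.582.

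Of the companion lists, coregulators moved least (18 or 19 genes). With a fold of at least 4, chaperones numbered 3 genes, ligand genes 6 and receptor targets 7. With q-values under 0.05 ligand genes numbered 7 and receptor targets 10. With q-values under 1e-5 they numbered 3 and 5, from 13 and 16 over all peaks. The 3' UTR share of member peaks was 36.07% and 44.83% at these thresholds, and the intron share 36.07% and 24.14%. The stricter sets hold fewer peaks by construction.

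No paired analysis was possible because each group has 1 library. Single peaks on few fragments limit the depth of the weaker members. Intervals leave out variation between cultures and between captures.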
